A study of Mus musculus with 18 samples.

Results

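Whole bone marrow of 8-week-old female C3H mice was compared 24 h and 6 h after gamma irradiation with 2 Gy, given at 0.6 Gy/min. The comparison rests on the 6 arrays that the sample titles place in these groups, 3 at 24 h and 3 at 6 h, out of 18 arrays in the whole series. Members were chosen by their titles alone, and no measured value entered the choice. The other 12 arrays are 3 unirradiated 8-week mice, used below to place the levels, and 9 mice of 1 week of age (24 h, 6 h and unirradiated, 3 of each). All groups share strain and sex. Per the series' text there were 3 mice at each time, so an array stands for a mouse. The marrow was not sorted, and each group is a different set of animals, so a difference between the times is a difference between mice.

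Ionising radiation breaks DNA, and in blood-forming marrow the break signal stabilises the transcription factor p53, which switches on genes for cell-cycle arrest, for feedback on p53 itself and for apoptosis. Lymphoid precursors die readily after such a dose, while maturing granulocytes and red cell precursors differ in how fast they divide and leave the marrow. Macrophages clear the dead cells, and stromal cells and sinusoidal endothelium provide the factors that hold and feed the surviving stem cells.

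Levels are log2 signals of a gene's probe minus the 75th percentile of its array, so 0 lies at that percentile, and differences are 24 h minus 6 h with the standard error of a limma fit to all 18 arrays. Genes entered the test if some group had the probe well above background on each of its 3 arrays, as 11884 genes did, and were called at an adjusted p under 0.05. Between 21617 and 23107 of 41174 probes were well above background on the 24 h arrays and between 21209 and 22730 on the 6 h arrays. Replicates correlated at r = 0.9956 to 0.9967 at 24 h and 0.9922 to 0.995 at 6 h, against 0.9794 to 0.9848 between the times. Replicates 1 and 2 of both times lie on slides 1 and 2, while 24 h replicate 3 lies on slide 5 and 6 h replicate 3 on slide 3. Of the called genes 99.4% kept their direction within slide 1 and 99.8% within slide 2, Ngp being the exception among those named here. The arrays on these slides also entered the fit that called the genes. High shares follow from that choice, so they do not test an influence of the slide. The 5 marrow markers Mpo, Elane, Ngp, Alas2 and Cd79a were well above background on all 6 arrays, but at different levels. Mpo ran from 9.12 to 9.30 at 24 h and from 8.43 to 8.62 at 6 h, and Alas2 from 8.50 to 8.81 at 24 h and from 8.26 to 8.43 at 6 h. Cd79a, the B-cell receptor chain, was low, from -3.15 to -2.88 at 24 h and from -3.02 to -2.53 at 6 h. The array of 6 h replicate 3 stood apart from the other 6 h arrays in several lists. Skeletal muscle genes averaged -2.34, -3.42 and -3.57 at 24 h, against -1.07, -1.08 and -3.53 at 6 h. The muscle myosin Myh4 followed the same split, with -5.90, -5.17 and -5.77 at 24 h and -0.01, 0.94 and -6.14 at 6 h, whereas the muscle kinase Ckm was not well above background on any of the 6. None of the 11 tested muscle genes and none of the 7 cartilage genes was called in the main limma fit to all 18 arrays. With slide as a fixed block Myh4 was called lower (-5.35, adjusted p = 0.0212) and Sox9, of the cartilage list, higher (2.03, adjusted p = 0.0433).

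Of the 11884 genes, 5872 (49.4%) differed between the times, of which 3916 (33% of all tested) were higher at 24 h and 1956 (16.5%) lower. At an unadjusted p under 0.05 there were 6537. The change was mostly modest: 441 genes (3.71%) were called with at least a 2-fold difference, 321 of them higher and 120 lower. For 6796 genes (57.2%) the arrays of the times did not overlap. The median difference over all tested genes was 0.10. The surplus of rises depends in part on the scaling, since 66.7% of the calls were higher here and 57.5% when the 75th percentile was taken over probes well above background on every array. Counts for the gene lists below are to be read against these shares.

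**Figure D1:**
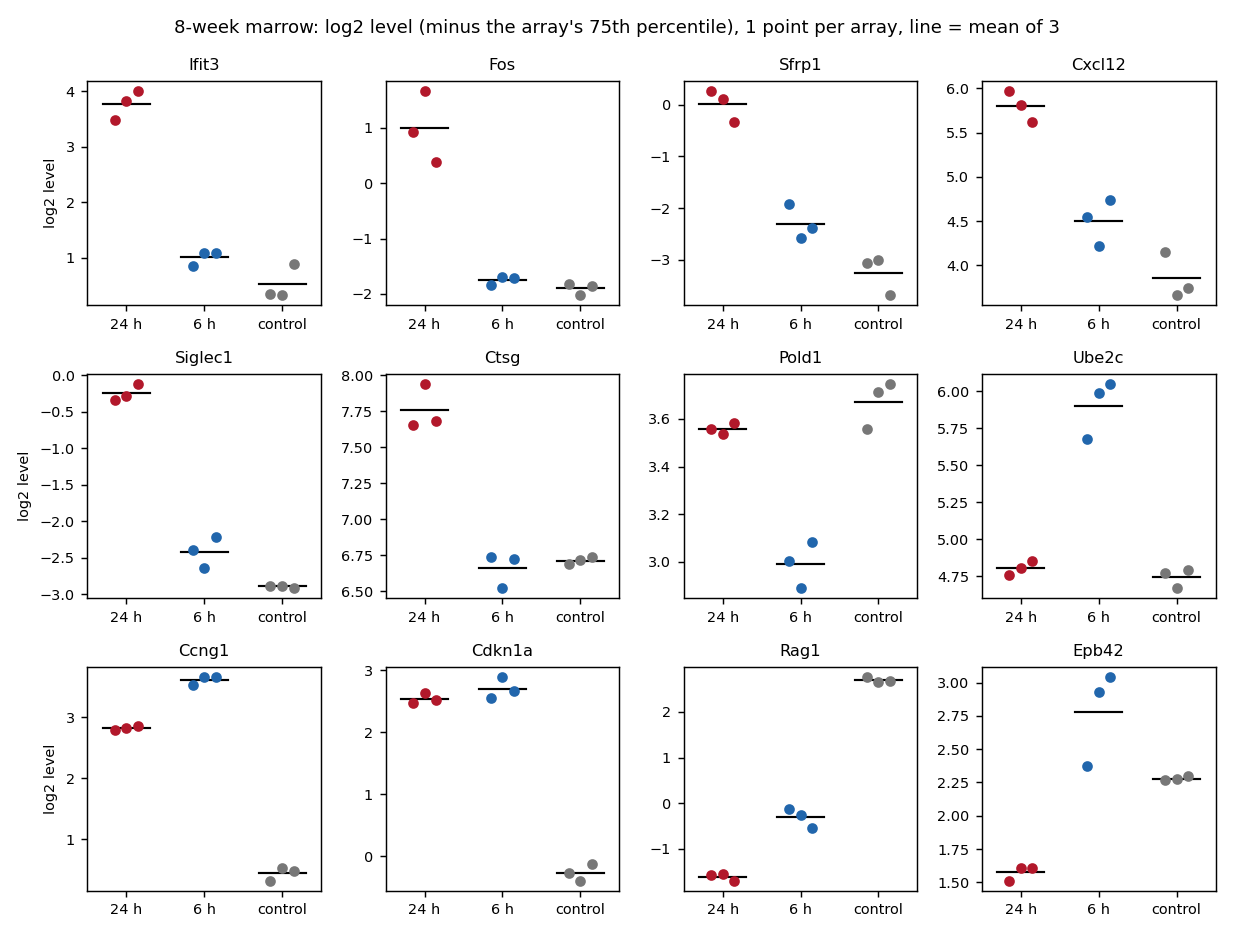
Log2 level of 12 genes in 8-week marrow, 1 point per array (24 h in red, 6 h in blue, unirradiated control in grey) with the mean of 3 as a line; vertical scales differ between panels. Ifit3, Fos, Sfrp1, Cxcl12, Siglec1, Ctsg and Pold1 are higher at 24 h than at 6 h on every array, Ube2c, Ccng1, Rag1 and Epb42 lower, and Cdkn1a overlaps between the times at a level above the controls.

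The p53 programme was lower at 24 h than at 6 h in most of its members. More of its members stood above the controls at 24 h than below, but not all did. Of 19 tested arrest and feedback targets 16 fell, 1 rose and 2 did not pass (16.5% of all tested genes fell), with a median of -0.57. Against controls 11 of the 19 were higher and 2 lower at 24 h (median 0.76), and 17 were higher and none lower at 6 h (median 0.88). Of all tested genes 57.8% were called against controls at 24 h (38.3% higher) and 46% at 6 h (23.9% higher). Ccng1, cyclin G1, a p53 target that feeds back on p53 through Mdm2, had levels of 2.79, 2.81 and 2.86 at 24 h, against 3.54, 3.65 and 3.66 at 6 h and 0.32, 0.52 and 0.48 in controls. Both irradiated groups lay far above the controls, and the times did not overlap (difference -0.79 ± 0.08, adjusted p = 5.6e-07). Dcxr, a xylulose reductase induced by p53, differed most within the list, by -1.04 ± 0.08 (adjusted p = 7.86e-08), with 1.01, 1.12 and 1.06 at 24 h and 2.22, 2.11 and 1.98 at 6 h. Ptp4a3, a phosphatase, had the smallest adjusted p (6.38e-08) with the probe used and lay at 4.07, 4.06 and 4.19 at 24 h, against 4.77, 4.79 and 4.77 at 6 h. Its 24 h values were close to those of the controls (4.09, 4.11 and 4.20). Its second probe, above background on all 6 arrays, gave -0.01, and the mean over both -0.34 (adjusted p = 0.0438). The feedback genes Mdm2, the ubiquitin ligase that removes p53, and Mdm4, its partner, fell by 0.56 and 0.59, and the phosphatase gene Ppm1d, which turns the signal off, fell by 0.42.

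Cdkn1a, the inhibitor p21 that stops cells before S phase, did not follow. Its levels were 2.47, 2.63 and 2.51 at 24 h, against 2.55, 2.89 and 2.66 at 6 h and -0.27, -0.40 and -0.14 in controls. The times overlapped (difference -0.16 ± 0.16, adjusted p = 0.437), with both about 3 log2 units above the controls (2.81 at 24 h and 2.97 at 6 h). Rps27l, a ribosomal protein paralog under p53, was the other member that did not pass (-0.09 ± 0.08, adjusted p = 0.373). Only the kinase gene Plk3 rose in this list (0.29 ± 0.10, adjusted p = 0.0211), and that call was lost when 24 h replicate 2, 6 h replicate 1 or 6 h replicate 3 was left out (adjusted p = 0.0659, 0.0821 and 0.074). Within this list the largest difference from controls at both times was that of Phlda3, an inhibitor of Akt signalling, at 4.91, 4.93 and 5.01 at 24 h, 5.29, 5.49 and 5.68 at 6 h and 1.52 to 1.68 in controls.

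Among 20 death-side and repair targets 12 fell, 3 rose and 5 did not pass, with a median of -0.38. Against controls 14 of the 20 were higher and 3 lower at 24 h, and 15 were higher and 3 lower at 6 h. Bbc3, which encodes the BH3-only killer Puma, had levels of 3.91, 4.12 and 4.11 at 24 h, against 4.89, 5.01 and 5.02 at 6 h and 2.90, 3.07 and 3.0 in controls. It thus stood midway, 1.06 above control at 24 h and 1.98 at 6 h (24 h minus 6 h -0.93 ± 0.08, adjusted p = 1.25e-07). Bax, the pore-forming effector, fell by 0.48, Pmaip1 (Noxa) by 0.52, Ei24 by 0.78 and the translesion polymerase gene Polk by 1.08. The death receptor gene Fas showed no detectable change between the times, with 1.97, 1.88 and 2.10 at 24 h and 1.94, 1.94 and 1.89 at 6 h (adjusted p = 0.473). The repair gene Xpc, which detects bulky DNA lesions, rose (0.44 ± 0.06, adjusted p = 3.22e-05), as did Tigar, which slows glycolysis (0.76 ± 0.17, adjusted p = 0.0015). The rise of Fdxr, a mitochondrial reductase, was 0.16 ± 0.06 (adjusted p = 0.048) and missed the threshold whenever any of the 6 arrays was left out (adjusted p from 0.0712 to 0.125). Gdf15, a stress cytokine, stood 4.03 above control at 24 h and 4.71 at 6 h, and its difference of -0.68 ± 0.39 did not pass (adjusted p = 0.16). It passed with the 6 irradiated 8-week arrays alone (adjusted p = 0.0065), with the 9 arrays of 8-week mice (adjusted p = 0.0218) and with normexp background correction (-0.60, adjusted p = 0.0181).

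Bmf, a BH3-only gene outside the p53 lists that responds to loss of survival signals, gave the smallest adjusted p among the falls named here (2.18e-09). It stood at -0.59, -0.64 and -0.58 at 24 h, 1.12, 1.04 and 1.01 at 6 h and 2.52 to 2.55 in controls. It heads a list of 12 apoptosis regulators of which 5 fell and 3 rose. Bcl2l11 (Bim) fell by 0.56, with 0.14 from its second probe and -0.21 over both (adjusted p = 0.0171), and Xiap, the caspase inhibitor gene, by 0.41. Bak1, a second pore former, rose by 0.56 (adjusted p = 3.16e-05), although the mean over its probes gave 0.17 (adjusted p = 0.184).

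Genes of B-cell precursors and mature B cells stood lower at 24 h, and none of those tested rose. Of 17 precursor genes 8 fell and 9 did not pass, with a median of -0.47. In bulk marrow, fewer cells of a type and less RNA per cell cannot be told apart. Rag1, a subunit of the recombinase that assembles antigen receptor genes, had levels of -1.57, -1.55 and -1.69 at 24 h, against -0.12, -0.25 and -0.54 at 6 h and 2.76, 2.66 and 2.67 in controls. The groups formed 3 separate steps, 4.30 below control at 24 h and 3.0 below at 6 h (24 h minus 6 h -1.30 ± 0.10, adjusted p = 8.38e-08). Arpp21, expressed in lymphoid precursors, fell by 1.35, Lef1, a Wnt pathway transcription factor, by 0.85, and the interleukin 7 receptor gene Il7r by 0.71. Foxo1, the factor that drives Rag expression, lay at 1.35, 1.16 and 1.19 at 24 h and 1.95, 2.17 and 1.93 at 6 h (-0.78 ± 0.07, adjusted p = 4.47e-07).

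Other precursor genes were already low at 6 h and did not pass in the main fit. Ebf1, the master regulator of early B cells, had -2.07, -2.16 and -2.10 at 24 h, against -1.76, -1.74 and -1.99 at 6 h and 0.35 to 0.43 in controls (-0.28, adjusted p = 0.0982). It passed in the fit of the 9 arrays of 8-week mice (adjusted p = 0.0188) and with the 75th percentile over probes above background on every array (-0.34, adjusted p = 0.0477). The surrogate light chain genes Vpreb1 and Vpreb2 differed by -0.19 and -0.20 (adjusted p = 0.248 and 0.225). Dntt, the polymerase that adds bases at receptor joints, differed by -0.19 ± 0.10 (adjusted p = 0.138). Vpreb1, Vpreb2 and Dntt passed when 6 h replicate 3 was left out (-0.39, -0.34 and -0.29, adjusted p = 0.00309, 0.0442 and 0.0338). Dntt also passed under quantile normalization (-0.31, adjusted p = 0.0284) and with the mean over its probes (-0.28, adjusted p = 0.032). The other probes of Dntt, above background on all arrays of both times, gave -0.41 and -0.25. Pax5 was not well above background at 24 h and was so on 1 of 3 arrays at 6 h, and its difference did not pass (adjusted p = 0.128), except in the fit of the 9 arrays (adjusted p = 0.0389).

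Mature B-cell genes gave the larger count, with 13 of 17 lower, none higher and a median of -0.57, against a median of -0.85 relative to control at 24 h and 0.03 at 6 h. Their list mean was -0.27, -0.54 and -0.39 at 24 h and 0.39, 0.41 and 0.03 at 6 h, so the 6 h array nearest to the 24 h arrays was again replicate 3. Tnfrsf13c, the BAFF receptor that keeps B cells alive, had 1.11, 0.75 and 0.82 at 24 h, against 2.13, 2.21 and 1.71 at 6 h and 2.21 to 2.44 in controls (-1.12 ± 0.12, adjusted p = 1.57e-06). Fcer2a, the low-affinity IgE receptor CD23, stood at -1.97, -2.16 and -1.72 at 24 h, against -0.43, -0.29 and -0.63 at 6 h and -1.84 to -1.58 in controls. Its 6 h arrays were thus the high ones, and the 24 h arrays were near the controls (-1.50 ± 0.16, adjusted p = 1.49e-06). Of 12 plasma cell genes 6 rose, 3 fell and 3 did not pass. Fkbp11, a folding enzyme of secretory cells, rose 3.23-fold, with 0.21, 0.44 and 0.09 at 24 h and -1.46, -1.45 and -1.42 at 6 h. Mzb1, a chaperone of B and plasma cells, fell by 0.60.

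Cell-cycle genes split by phase. Genes of mitosis fell in 25 of 33 tested cases and rose in none (median -0.36), while genes of DNA replication rose in 23 of 33 and fell in none (median 0.32; 33% of all tested genes rose). Against controls 5 of the 33 mitosis genes were higher and 1 lower at 6 h (median 0.07). At 24 h 21 were lower and none higher (median -0.31), where 19.5% of all tested genes were lower. Ube2c, the ubiquitin-conjugating enzyme of the anaphase-promoting complex, had levels of 4.76, 4.81 and 4.86 at 24 h, against 5.67, 5.99 and 6.05 at 6 h and 4.77, 4.67 and 4.79 in controls. The 6 h arrays stood above the other groups, which were level with each other (24 h minus 6 h -1.09 ± 0.09, adjusted p = 1.03e-07). Cenpf, a centromere protein, had 2.72, 2.36 and 2.58 at 24 h, against 3.34, 3.96 and 4.01 at 6 h and 3.23 to 3.58 in controls, so here the 24 h arrays were below both other groups (-1.21 ± 0.14, adjusted p = 3.13e-06). The proliferation marker Mki67 fell by 0.87 and the phosphatase gene Cdc25b, which starts mitosis, by 0.86. Ccnb1, cyclin B1, differed by -0.21 ± 0.09 with overlapping arrays (adjusted p = 0.0487) and, of the fits that leave out 1 array, passed only without 6 h replicate 1 (adjusted p from 0.0682 to 0.25 in the others). Its 2 other probes gave -0.60 and -0.51, and the mean over probes -0.44 (adjusted p = 0.000696).

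Replication genes moved the opposite way by smaller steps. Pold1, the catalytic subunit of polymerase delta, had 3.56, 3.54 and 3.58 at 24 h, against 3.0, 2.89 and 3.08 at 6 h and 3.56, 3.71 and 3.75 in controls (0.57 ± 0.09, adjusted p = 8.55e-05). The 24 h arrays were thus near the controls and the 6 h arrays below. E2f1, the transcription factor that drives S-phase genes, rose by 0.41, the deoxyuridine triphosphatase gene Dut by 0.50 and the DNA ligase gene Lig1 by 0.39. The list mean was 3.14, 3.16 and 3.15 at 24 h, against 2.74, 2.74 and 3.06 at 6 h and 3.27 to 3.32 in controls. With 6 h replicate 3 left out, 30 replication genes rose and 18 mitosis genes fell, with medians of 0.44 and -0.27. Of 16 G1 regulators 5 rose and 5 fell: Cdk4, the kinase of G1 progression, rose by 0.84, and the CDK inhibitor genes Cdkn2c and Cdkn2d fell by 0.78 and 0.64. The 5 rises became 3 without 24 h replicate 3.

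Promoters of both lists are shown because their members moved together and the motifs bound by the known cell-cycle regulators of each phase can be read in them. TTTGAA is the core of the cell-cycle homology region bound by the MuvB complex, CCAAT is the element of NF-Y, and TTTCCCGC or TTTGGCGC is an E2F site. Windows run from 250 bases before to 50 after the start of a RefSeq gene (GRCm38.p6), both strands were searched, and overlapping matches were kept. TTTGAA was present in 21 of 29 promoters of mitosis genes (72.4%), against 17.9% of all 32851 promoters. CCAAT was present in 25 of the 29 (86.2%), against 37.4% of all. The E2F site was present in 10 of 33 promoters of replication genes (30.3%), against 1.56% of all. Promoters were found for 27 of the 33 mitosis and 29 of the 33 replication genes. The promoters below belong, in each list, to the 2 members of smallest adjusted p that have 1 promoter in the table and hold every motif searched for in the list, with matches in capitals. Mcm6, a subunit of the replicative helicase, was taken by this condition after its values were seen (6.79, 6.77 and 6.83 at 24 h, against 6.19, 6.21 and 6.54 at 6 h, adjusted p = 0.000109). A match is a description of the letters and not of binding.
Ube2c (chr2:164769679-164769978, plus strand, 7 matches): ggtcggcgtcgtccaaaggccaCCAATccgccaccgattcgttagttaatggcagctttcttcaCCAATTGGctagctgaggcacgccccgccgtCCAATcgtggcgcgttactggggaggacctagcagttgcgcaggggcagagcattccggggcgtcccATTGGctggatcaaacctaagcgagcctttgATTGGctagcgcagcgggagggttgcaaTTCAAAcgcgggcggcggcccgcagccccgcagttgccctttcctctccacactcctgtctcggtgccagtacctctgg
Cenpf (chr1:189688037-189688336, minus strand, 3 matches): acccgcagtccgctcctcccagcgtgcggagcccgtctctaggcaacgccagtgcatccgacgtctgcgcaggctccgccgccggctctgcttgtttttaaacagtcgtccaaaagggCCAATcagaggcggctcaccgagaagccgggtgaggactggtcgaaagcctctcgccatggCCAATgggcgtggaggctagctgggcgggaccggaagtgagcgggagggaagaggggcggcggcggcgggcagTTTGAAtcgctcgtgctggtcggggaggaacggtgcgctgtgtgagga
Pold1 (chr7:44548766-44549065, minus strand, 1 match): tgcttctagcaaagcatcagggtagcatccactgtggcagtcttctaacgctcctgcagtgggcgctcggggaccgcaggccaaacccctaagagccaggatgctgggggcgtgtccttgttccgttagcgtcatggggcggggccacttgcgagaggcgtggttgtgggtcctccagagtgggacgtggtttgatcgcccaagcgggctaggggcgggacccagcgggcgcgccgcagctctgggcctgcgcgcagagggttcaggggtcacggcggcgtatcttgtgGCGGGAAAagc
Mcm6 (chr1:128359656-128359955, minus strand, 2 matches): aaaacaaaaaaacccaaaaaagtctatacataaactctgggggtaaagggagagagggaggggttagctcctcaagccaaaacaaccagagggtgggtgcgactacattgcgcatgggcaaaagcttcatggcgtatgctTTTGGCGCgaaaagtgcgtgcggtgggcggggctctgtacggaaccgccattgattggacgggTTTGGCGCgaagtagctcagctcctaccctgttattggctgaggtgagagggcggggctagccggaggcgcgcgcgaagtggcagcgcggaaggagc

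Most red cell genes on the lists were lower at 24 h. Of 19 membrane and globin genes 16 fell and 1 rose (median -0.65), of 12 haem enzymes and transporters 10 fell and 2 rose (median -0.46), and of 13 erythroid regulators 10 fell and none rose (median -0.62). Epb42, a protein of the red cell skeleton, had 1.51, 1.61 and 1.61 at 24 h, against 2.38, 2.93 and 3.04 at 6 h and 2.27 to 2.30 in controls. The controls lay between the irradiated groups (24 h minus 6 h -1.21 ± 0.12, adjusted p = 6.49e-07). The tropomodulin gene Tmod1 fell by 1.04 and Slc4a1, the anion exchanger band 3, by 0.72. Hemgn, a nuclear protein of red cell precursors, had 4.47, 4.53 and 4.40 at 24 h and 5.09, 5.75 and 5.82 at 6 h (-1.09 ± 0.13, adjusted p = 3.73e-06). Fech, the enzyme that inserts iron into haem, fell by 0.70, with -0.19 from its second probe.

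The genes that did not fall were picked out after their values were seen. Alas2 and Alas1, the red cell and the general form of the first haem enzyme, rose by 0.27 and 0.39 (adjusted p = 0.0123 and 0.000251), and Car1, a carbonic anhydrase, rose by 0.52 (adjusted p = 0.00107). The erythroid regulators Gata1, Nfe2 and Bcl11a did not pass (-0.13, -0.12 and 0.04). The globin genes Hba-a1 and Hbb-bt did not pass (0.03 and 0.11, adjusted p = 0.789 and 0.386). Hba-a1 lay at 10.17, 10.21 and 10.29 at 24 h and 10.19, 10.23 and 10.17 at 6 h, close to the top of the scale, and its near-identical copies may share the probe.

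Megakaryocyte and platelet genes were higher at 24 h in 8 of 15 tested cases and lower in none (median 0.70), and this count depends on the arrays. The list mean was 1.52, 1.76 and 1.71 at 24 h, against 0.58, 0.83 and 1.67 at 6 h and 0.69 to 1.16 in controls, so 6 h replicate 3 stood with the 24 h arrays. Without that array 14 of the 15 rose. Without 24 h replicate 2, 24 h replicate 3, 6 h replicate 1 or 6 h replicate 2 the count was 3 each time. Itga2b, the platelet fibrinogen receptor chain CD41, had 0.85, 1.06 and 1.29 at 24 h and -0.13, 0.04 and 0.56 at 6 h (0.91 ± 0.20, adjusted p = 0.00103). Gp5, a platelet glycoprotein, rose by 1.00 ± 0.22 (adjusted p = 0.0012).

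**Figure D2:**
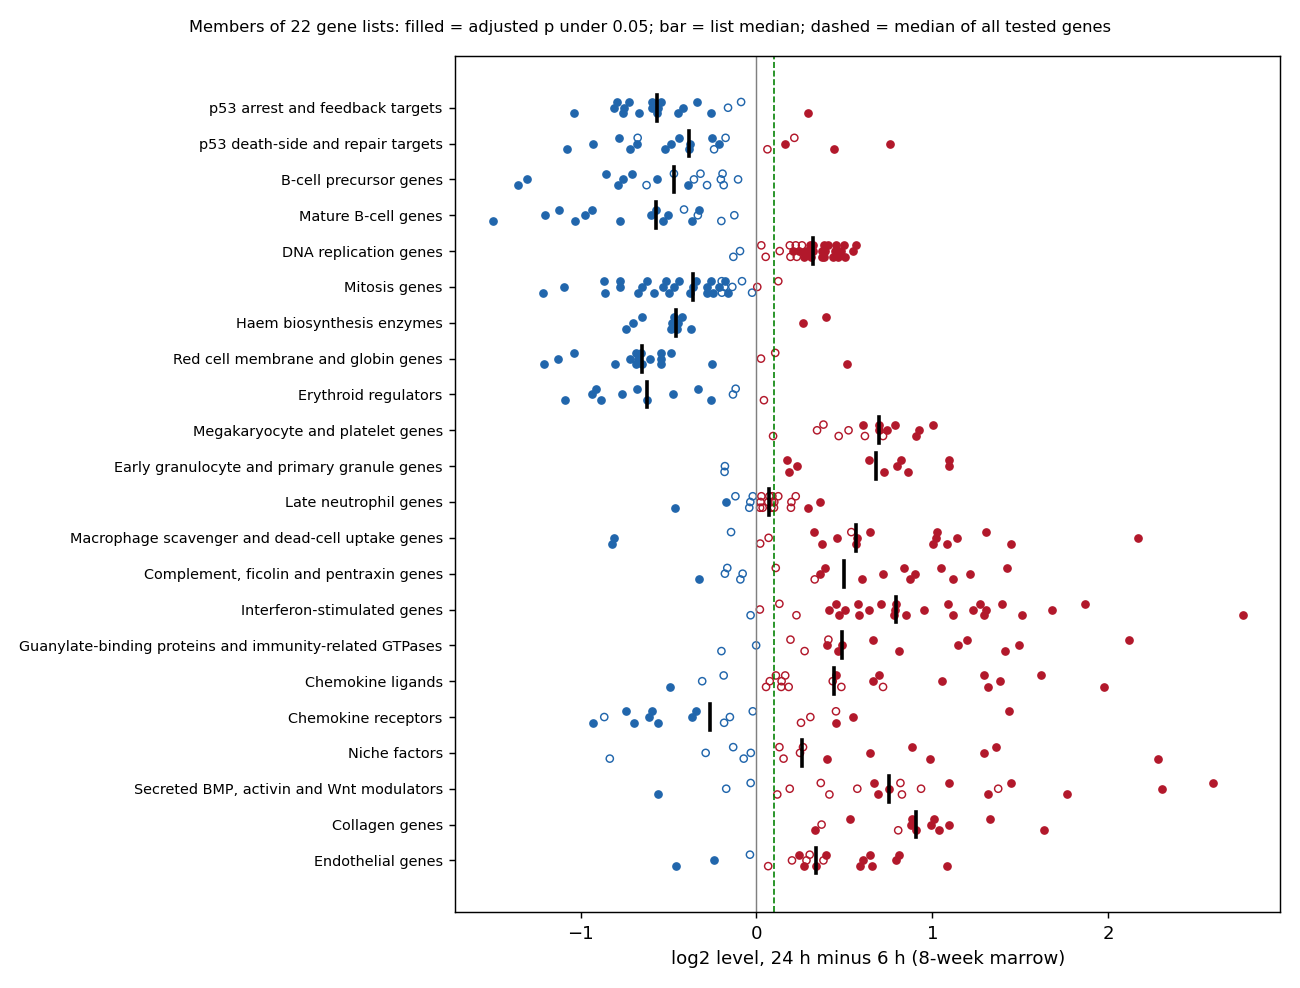
Difference in log2 level, 24 h minus 6 h, for each tested member of 22 gene lists in 8-week marrow; filled points were called, the black bar is the list's median and the dashed line the median of all tested genes (0.10). Red is higher and blue lower at 24 h; the medians of the mitosis, p53, B-lineage and red cell lists lie left of 0, and those of the interferon, collagen, complement and early granulocyte lists right of it.

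Early granulocyte genes rose, and late neutrophil genes barely moved. Of 12 early and primary granule genes 10 rose and none fell (median 0.68). Ctsg, cathepsin G, had 7.65, 7.94 and 7.68 at 24 h, against 6.74, 6.52 and 6.72 at 6 h and 6.69, 6.71 and 6.74 in controls. Controls and 6 h arrays were level, and the 24 h arrays stood above both (1.1 ± 0.09, adjusted p = 8.5e-08). The other proteases of these granules did the same: Prtn3 rose by 1.09 and Elane, neutrophil elastase, by 0.86. Mpo, myeloperoxidase, rose 1.56-fold (0.64 ± 0.07, adjusted p = 1.85e-06), to 9.15, 9.30 and 9.12 at 24 h, against 8.61, 8.43 and 8.62 at 6 h.

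Of 23 late neutrophil genes 2 rose, 2 fell and 19 did not pass (median 0.07). Relative to control the list median was 0.65 at 24 h and 0.56 at 6 h. Itgam, the integrin CD11b, fell by 0.46 (adjusted p = 0.000192). Ngp, a protein of secondary granules, had 7.71, 7.91 and 7.65 at 24 h and 8.01, 7.87 and 7.90 at 6 h. Its difference of -0.17 ± 0.07 (adjusted p = 0.0439) turned to 0.04 within slide 2 and lost its call without 24 h replicate 1 or 3, or 6 h replicate 1 or 3 (adjusted p from 0.0601 to 0.198). Eosinophil genes rose in 4 of 10 cases, near the 33% of all genes, and in 2 under quantile normalization. Epx, eosinophil peroxidase, rose by 0.43. Mast cell and basophil genes fell in 6 of 11 and rose in none, led by the chymase gene Cma1 (-0.67 ± 0.13, adjusted p = 0.000433).

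Macrophage genes rose broadly. Of 20 scavenger and dead-cell uptake genes 14 rose and 2 fell (median 0.57), and of 12 haem and iron handling genes 7 rose and 2 fell (median 0.43). Siglec1, the sialic acid receptor that marks resident marrow macrophages, had -0.34, -0.28 and -0.12 at 24 h, against -2.39, -2.64 and -2.22 at 6 h and -2.91 to -2.88 in controls, a 4.5-fold rise with widely separated arrays (adjusted p = 2.05e-07). Marco, a scavenger receptor, had 2.76, 3.06 and 2.87 at 24 h, 1.62, 1.30 and 1.43 at 6 h and -0.65 to -0.08 in controls, so it climbed in both intervals. The mannose receptor gene Mrc1 rose by 1.02, the phosphatidylserine-dependent receptor gene Axl by 1.00 and the monocyte-macrophage gene Ms4a7 by 1.26. Abca1, the cholesterol exporter, went down instead (-0.81 ± 0.08, adjusted p = 5.94e-07).

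Hmox1, haem oxygenase 1, which breaks haem down, had 6.08, 6.21 and 6.32 at 24 h, against 5.58, 5.58 and 5.45 at 6 h and 3.81 to 4.19 in controls. Slc40a1, ferroportin, which exports the freed iron, rose by 0.69, and Spic, the transcription factor of red pulp and marrow iron-recycling macrophages, by 0.75. Complement genes rose in 11 of 18 cases and fell in 1. C1qa and C1qb, chains of the recognition molecule C1q, rose 2.32-fold and 2.17-fold, and Cfb, factor B of the alternative pathway, rose 2.69-fold. C1qa had 3.0, 3.04 and 3.17 at 24 h, against 1.89, 1.82 and 1.85 at 6 h.

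Monocyte genes divided, with 4 of 14 higher and 4 lower. Ccr2, the receptor that lets monocytes leave the marrow, had 1.74, 1.61 and 1.72 at 24 h and 2.79, 2.77 and 2.29 at 6 h (-0.93 ± 0.13, adjusted p = 1.68e-05), and Cx3cr1 fell by 0.74. The 4 rises became 1 without 24 h replicate 3 or without 6 h replicate 3. The mean over the probes of Cx3cr1 showed no difference (-0.003, adjusted p = 0.995). Its second probe was above background on 1 array at 24 h and on none at 6 h, so this mean includes background signal.

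Interferon-stimulated genes gave the highest share of rises among the larger lists. Of 28 tested 24 rose and none fell, with a median of 0.79 (33% of all tested genes rose). Ifit3, an RNA-binding antiviral protein, had 3.49, 3.83 and 4.0 at 24 h, against 0.84, 1.09 and 1.08 at 6 h and 0.33 to 0.89 in controls. It rose 6.81-fold (2.77 ± 0.19, adjusted p = 2.76e-08) and already stood 0.49 above control at 6 h (adjusted p = 0.0422). Against controls 19 of the 28 were higher and none lower at 6 h (median 0.42). At 24 h 26 were higher and none lower (median 1.32). Of all tested genes 23.9% were higher than control at 6 h and 38.3% at 24 h. Oasl1, of the oligoadenylate synthetase family, had 1.88, 2.23 and 2.5 at 24 h and 0.25, 0.44 and 0.31 at 6 h, a 3.66-fold rise. Oasl2 rose 2.85-fold and Ifit2 2.35-fold. The near-identical gene Ifit3b rose as well (2.53 ± 0.22), and its probe may share transcripts with Ifit3. The 4 members that did not pass were named after their values were seen. Isg15, the ubiquitin-like product of the same response, and Rsad2, viperin, did not pass (-0.03 and 0.02, adjusted p = 0.937 and 0.883), and Irf9 and Stat2, parts of the signalling complex, stood at 0.23 and 0.13 (adjusted p = 0.052 and 0.285).

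The ISRE, the response element of interferon-stimulated genes, was searched as GAAANNGAAA on both strands in the same windows. It was present in 13 of 24 promoters of the list (54.2%), against 3.44% of all promoters, and 21 of the 28 members had a promoter in the table. The match did not separate members that rose from those that did not pass. It was found in Ifit1, Ifit3, Oas1a and Oas3, which rose, and also in Isg15, Rsad2 and Stat2, which did not pass. It was absent from Oasl1, Oasl2 and Ifit2, which rose, and from Irf9, which did not pass. The promoters of Ifit3 and Oas1a show the ISRE in capitals, in Oas1a as 2 overlapping matches. Oas1a, an oligoadenylate synthetase, was taken by the same condition as above after its values were seen (3.68, 3.96 and 3.97 at 24 h, against 2.75, 2.64 and 2.34 at 6 h, adjusted p = 1.16e-06).
Ifit3 (chr19:34583279-34583578, plus strand, 2 matches): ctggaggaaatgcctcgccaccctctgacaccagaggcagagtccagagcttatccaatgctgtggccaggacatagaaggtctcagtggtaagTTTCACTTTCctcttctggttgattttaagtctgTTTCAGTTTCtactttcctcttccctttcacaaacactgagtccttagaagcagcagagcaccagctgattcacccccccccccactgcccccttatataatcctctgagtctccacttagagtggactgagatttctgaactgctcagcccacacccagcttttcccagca
Oas1a (chr5:120907476-120907775, minus strand, 2 matches): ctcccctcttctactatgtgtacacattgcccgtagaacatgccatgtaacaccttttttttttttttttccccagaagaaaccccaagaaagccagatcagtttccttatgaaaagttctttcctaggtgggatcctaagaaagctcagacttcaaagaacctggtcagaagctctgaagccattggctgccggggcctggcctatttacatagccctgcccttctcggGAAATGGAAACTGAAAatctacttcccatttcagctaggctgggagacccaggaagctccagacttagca

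Related immune genes moved the same way to a smaller extent. Guanylate-binding proteins and immunity-related GTPases, which attack vacuoles of intracellular microbes, rose in 10 of 15 cases and fell in none (median 0.49). Iigp1 had 0.80, 0.92 and 0.87 at 24 h, against -1.52, -1.37 and -0.87 at 6 h and -1.59 to -0.89 in controls, a 4.34-fold rise. Gbp8 rose 2.66-fold and Gbp2 2.29-fold. Genes of MHC class I presentation rose in 7 of 12 cases and fell in none, by steps such as 0.64 for the peptide trimmer Erap1 and 0.49 for the immunoproteasome subunit Psmb10. MHC class II genes did not share this, with 1 of 10 higher and 3 lower. Cd74, the invariant chain, fell by 0.36 (adjusted p = 0.00436).

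**Figure D3:**
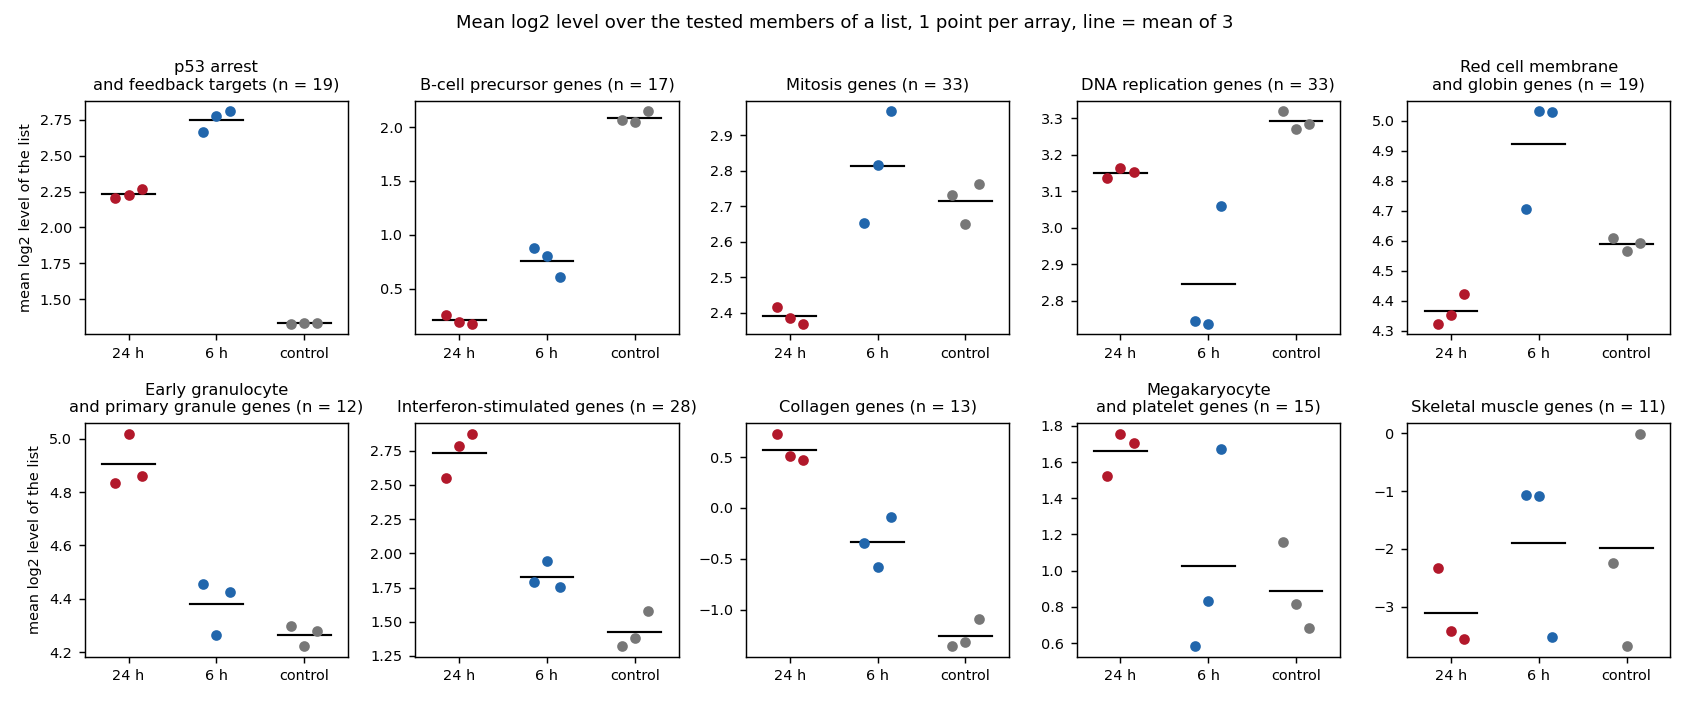
Mean log2 level over the tested members of 10 gene lists, 1 point per array (24 h red, 6 h blue, control grey) with the mean of 3 as a line; vertical scales differ. Interferon, collagen and early granulocyte lists are highest at 24 h, the p53 list is highest at 6 h, and 6 h replicate 3 lies apart from the other 6 h arrays in the replication, megakaryocyte and muscle panels.

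Most of the tested chemokine ligands did not pass. Of 22 tested, 9 rose, 1 fell and 12 did not pass (median 0.44), where 33% of all tested genes rose and 16.5% fell. The 9 became 5 without 24 h replicate 3, so the count of rises is not set apart from the share of all genes. Cxcl14 had 2.69, 2.67 and 2.40 at 24 h, against 0.72, 0.32 and 0.79 at 6 h and -0.72 to -0.30 in controls (1.98 ± 0.16, adjusted p = 1.14e-07). Cxcl12, which holds stem cells and B precursors in the marrow, had 5.97, 5.81 and 5.62 at 24 h, against 4.55, 4.22 and 4.74 at 6 h and 3.67 to 4.15 in controls (1.30 ± 0.16, adjusted p = 5.04e-06). The interferon-inducible ligands of Cxcr3 rose too: Cxcl10 by 1.62 ± 0.19 (adjusted p = 2.83e-06) and Cxcl9 by 1.32 ± 0.36 (adjusted p = 0.00568). Ccl8, a monocyte attractant, rose by 1.39.

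Ccl2, the main ligand of Ccr2, stayed high, with -0.85, -0.67 and -0.73 at 24 h, -1.07, -0.74 and -0.77 at 6 h and -3.99 to -3.76 in controls. The times overlapped (0.11 ± 0.11, adjusted p = 0.412) at about 3 log2 units above control (3.11 at 24 h and 3.0 at 6 h). Its neighbours Ccl7 and Ccl12 likewise did not pass (0.48 and 0.43, adjusted p = 0.138 and 0.325), and neither did Ccl3 and Ccl4 (0.14 and -0.19, adjusted p = 0.425 and 0.414). Ccl5 was the fall in the list (-0.49 ± 0.09, adjusted p = 0.000324). Smaller rises held less well: Cxcl16 rose by 0.45 but not without 24 h replicate 3 or 6 h replicate 2 (adjusted p = 0.0576 and 0.0519), and Ccl24 rose by 1.05 but not without 24 h replicate 3 or 6 h replicate 3 (adjusted p = 0.12 and 0.125) and by 0.01 within slide 2. Pf4, platelet factor 4, had 5.22, 5.55 and 5.22 at 24 h and 4.27, 4.17 and 5.46 at 6 h, so replicate 3 of the 6 h group reached the 24 h range, and its rise of 0.70 (adjusted p = 0.034) passed without that array but not without any other (adjusted p from 0.0507 to 0.18). Xcl1, a lymphoid ligand, rose by 0.67 (adjusted p = 0.0469) but missed the threshold without any array except 24 h replicate 1 (adjusted p from 0.0707 to 0.142). Of the other 7 that did not pass in the main fit, Ccl6, Ccl9, Ccl19, Ccl25 and Cx3cl1 differed by 0.05 to 0.18. Ccl27a differed by -0.31 and Ppbp by 0.72. Ppbp, like Pf4 a platelet product, passed without 6 h replicate 3 (1.23, adjusted p = 0.000381).

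Chemokine receptors were lower more often than higher, with 8 of 18 lower and 3 higher (median -0.26), where 16.5% of all tested genes fell and 33% rose. Besides Ccr2 and Cx3cr1, Ccr7, which guides lymphocytes to lymph nodes, fell by 0.69. Among 17 cytokine and NF-kB feedback genes 6 rose and 5 fell. The feedback inhibitor Tnfaip3 fell by 0.55 and Birc3 by 0.55, while Il18 rose by 0.47. The 5 falls became 3 without 24 h replicate 1. NK-cell and cytotoxic genes showed 6 of 17 lower and 3 higher, with the receptor genes Klrd1 and Klrb1c at -0.76 and -1.02 and the granule gene Nkg7 at 0.50. The mean over the probes of Klrb1c did not pass (-0.43, adjusted p = 0.107), but its second probe was above background on no array of either time. Of 14 T-cell genes 4 fell and none rose, and between 1 and 2 fell without 24 h replicate 1, 24 h replicate 2, 6 h replicate 1 or 6 h replicate 2. Tcf7, a factor of T-cell precursors, fell by 0.55, and the T-cell receptor subunit gene Cd3e was near background without a detectable change (-3.16, -2.94 and -3.11 at 24 h, -3.10, -3.52 and -3.08 at 6 h).

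Genes of the marrow stroma rose in part, the collagens most often. Collagens rose in 11 of 13 cases and fell in none (median 0.91), niche factors in 7 of 16 with none lower (median 0.26), stromal fibroblast and pericyte genes in 9 of 18 with none lower (median 0.36), and osteoblast genes in 6 of 15 with none lower (median 0.47), against 33% of all tested genes. The niche list mean was -0.78, -0.85 and -1.15 at 24 h, against -1.35, -1.63 and -1.17 at 6 h, so replicates 3 of the times were level. Col4a1 and Col4a2, basement membrane collagens, rose 2.51-fold and 1.99-fold. Col8a1, a short-chain collagen, had 4.25, 4.10 and 3.69 at 24 h, against 2.11, 1.99 and 3.04 at 6 h and 0.65 to 1.52 in controls (1.64 ± 0.26, adjusted p = 6.47e-05). Its 6 h replicate 3 was nearest to the 24 h arrays, which did not overlap with it.

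Among niche factors Igf1, a growth factor, had 2.12, 2.26 and 2.23 at 24 h, against 1.18, 1.23 and 1.24 at 6 h and 0.06 to 0.37 in controls (0.99 ± 0.09, adjusted p = 4e-07). Il7, the growth factor of lymphoid precursors, was well above background on all 3 arrays at 24 h and on none at 6 h and was at least 1.46-fold higher (measured means -3.54 at 24 h and -5.82 at 6 h, adjusted p = 2.8e-05). Such a bound sets the mean of the bright group against the dim group's mean of, per array, the higher of the lowest signal among probes well above background and the probe's own. Vcam1, the adhesion molecule that retains progenitors, rose by 0.65. Pdgfra, a receptor of stromal progenitors, was at least 1.54-fold higher (adjusted p = 0.000271), and Sp7, the osteoblast factor osterix, at least 1.8-fold (adjusted p = 0.00469), both above background at 24 h only.

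Secreted modulators of BMP, activin and Wnt signals rose in 9 of 21 cases and fell in 1 (median 0.76). Sfrp1, a secreted Wnt antagonist, had 0.26, 0.10 and -0.34 at 24 h, against -1.92, -2.58 and -2.39 at 6 h and -3.67 to -3.0 in controls, a 4.95-fold rise. Its relative Sfrp2 rose 6.04-fold, to -0.53, -0.65 and -0.84 at 24 h, against -3.46, -3.24 and -3.12 at 6 h. Fstl1, follistatin-like 1, rose 3.4-fold, the BMP antagonist gene Chrdl1 3.68-fold (0.90 on the log2 scale over its probes) and the ligand gene Bmp4 2.49-fold. Alpl, alkaline phosphatase of osteoblasts, rose by 0.88 and Ibsp, bone sialoprotein, by 0.80.

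Endothelial genes rose in 11 of 19 cases and fell in 2 (median 0.34). Stab2, a scavenger receptor of sinusoidal endothelium, had 0.58, 0.52 and 0.41 at 24 h, against -0.57, -0.63 and -0.53 at 6 h and -1.16 to -0.99 in controls (1.08 ± 0.13, adjusted p = 3.96e-06). Kdr, the VEGF receptor, rose by 0.81 and Plvap, of vessel diaphragms, by 0.79. The list mean was -0.09, -0.12 and -0.31 at 24 h, against -0.70, -0.62 and -0.30 at 6 h, so 6 h replicate 3 stood with the 24 h arrays, and 13 rose without it. The 11 rises became 6 without 6 h replicate 1, and 7 without 24 h replicate 1, 24 h replicate 2 or 6 h replicate 2. They were also 7 when the 75th percentile was taken over probes above background on every array. Adipocyte and lipid uptake genes rose in 6 of 13 cases and fell in 2, with Lpl, lipoprotein lipase, at 4.15, 4.0 and 3.98 at 24 h and 2.77, 2.67 and 2.73 at 6 h (1.32 ± 0.07, adjusted p = 6.21e-09). Fabp4, a fatty acid carrier of fat cells, vessels and macrophages, rose 2.15-fold. Of 12 genes responsive to TGF-beta or YAP 3 rose and 4 fell. Ccn2, connective tissue growth factor, had 1.05, 1.18 and 0.65 at 24 h, against 1.90, 1.86 and 2.84 at 6 h and -1.82 to -1.25 in controls, so its 6 h value was set highest by replicate 3 (-1.25 ± 0.33, adjusted p = 0.00491). Of 13 osteoclast genes 1 rose and 1 fell.

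Of 17 stem and progenitor regulators 5 rose and 5 fell. Lmo2 and Gfi1b, which also act in red cell precursors, fell by 0.46 and 0.64, and Procr, a receptor on stem cells and endothelium, rose by 0.41. The 5 rises became 2 without 24 h replicate 2, and 3 without 24 h replicate 1, 24 h replicate 3, 6 h replicate 1 or 6 h replicate 2. The 5 falls became 3 without 24 h replicate 3 or 6 h replicate 1. Of 27 DNA repair genes 8 rose and 6 fell. The end-joining genes Dclre1c and Lig4 fell by 0.67 and 0.59, and the end-resection nuclease gene Exo1 rose by 0.62. The 6 falls became 3 without 24 h replicate 2 or 6 h replicate 3.

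Stress and metabolic lists were mixed. Of 18 immediate early genes 7 rose and 2 fell, the 7 becoming 4 without 24 h replicate 2 or 6 h replicate 3. Fos, a component of AP-1 that is switched on within minutes by many stimuli, had 0.93, 1.66 and 0.39 at 24 h, against -1.83, -1.70 and -1.71 at 6 h and -2.02 to -1.81 in controls. It rose 6.69-fold, with the 24 h mice spread over more than 1 log2 unit (SD 0.64) and the other groups close together (SD 0.07 at 6 h and 0.11 in controls). Junb rose by 0.92, and Atf3, an early stress factor, fell by 1.33, with -1.69, -1.59 and -1.56 at 24 h, against -0.49, -0.08 and -0.28 at 6 h and -2.01 to -1.93 in controls.

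Of 14 heat shock genes 7 rose and 1 fell, with the mitochondrial chaperone pair Hspd1 and Hspe1 at 0.94 and 0.52. Under quantile normalization 4 of them rose. Nrf2-controlled antioxidant genes rose in 7 of 12 cases and fell in 3: the peroxiredoxin gene Prdx1 rose by 0.89 and the glutathione transferase gene Gstm1 by 0.64, and Nqo1, a quinone reductase, fell by 0.58. Cholesterol synthesis and uptake genes rose in 10 of 16 cases and fell in 1, with Fdps at 0.89 and Fdft1, the fall, at -0.58 (-0.45 over its probes, adjusted p = 0.0509). The second probe of Fdft1 was above background on no array of either time. Of 12 glucocorticoid-induced and metallothionein genes 2 rose and 3 fell. Among the falls were Ddit4, an inhibitor of mTOR, at -0.67, and Fkbp5, a classic glucocorticoid target, at -0.99 with the probe used. The 2 other probes of Fkbp5, above background on all 6 arrays, went the other way, at 0.24 and 0.15. The mean over its probes was -0.20 (adjusted p = 0.193).

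Clock genes are driven by Clock and Arntl through the E-box CACGTG and follow the hour of the day. The hours of irradiation and sampling are not given in the sources used here, so their part in these values was not tested. Of 14 tested clock genes 4 fell, none rose and 10 did not pass. Dbp, an output gene, had 1.77, 1.75 and 1.70 at 24 h, against 2.24, 2.13 and 2.20 at 6 h and 2.26 to 2.38 in controls (-0.45 ± 0.06, adjusted p = 6.79e-06). Tef fell by 0.49 (-0.17 over its probes, adjusted p = 0.522), Bhlhe40 by 0.26 and Nr1d2 by 0.57. The other probes of Tef were above background on no array of either time. Bhlhe40 lost its call without 6 h replicate 1 (adjusted p = 0.0673), and Nr1d2 without 24 h replicate 2, 24 h replicate 3 or 6 h replicate 2 (adjusted p = 0.0554, 0.097 and 0.129). The core genes Arntl, Per1, Per2, Cry1, Cry2 and Clock did not pass in the main fit, with differences from -0.30 to 0.31. Under other settings some of them passed. Arntl did with slide as a fixed block (-0.30, adjusted p = 0.0129) and Cry2 under quantile normalization (0.41, adjusted p = 0.0168), each also under further settings. Per1 did with the 6 irradiated 8-week arrays alone (-0.30, adjusted p = 0.0267). Hlf, Nfil3, Rora and Nr1d1 also did not pass in the main fit, at -0.18 to 0.40, and Nr1d1 passed with slide as a fixed block (0.56, adjusted p = 0.0224). The E-box was present in 4 of 17 clock gene promoters (23.5%), for 12 of the 14 genes, against 7.15% of all promoters.

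The 15 largest rises with signal on both sides all exceeded 1.8 log2 units. Beyond those above, Rbp4, the plasma carrier of retinol, had 0.57, 0.33 and 0.08 at 24 h and -2.29, -2.65 and -2.14 at 6 h (2.68 ± 0.31), and Adh1, an alcohol and retinol dehydrogenase, rose 5.25-fold. Bcat1, a branched-chain amino acid transaminase, had the smallest adjusted p of the rises (7.7e-09): it lay at -0.32, -0.35 and -0.47 at 24 h, -2.45, -2.62 and -2.97 at 6 h and -0.83 to -0.72 in controls, so its 6 h level was the low one. Ica1l rose 4.42-fold, Arhgdig 4.07-fold, and Nol3, an apoptosis repressor, by 2.39 on the log2 scale. Nol3 was above background on 1 of the 3 arrays at 6 h, and with normexp its difference was 1.26 (adjusted p = 0.0512). Of the 15, 12 also rose at 1 week (18.6% of all tested genes rose there).

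Most of the largest falls shared a pattern over the arrays. Ddx25, known as an RNA helicase of the testis and seen here with 1 of its 2 probes above background, had 1.25, 1.53 and 0.42 at 24 h, against 5.06, 5.97 and 3.35 at 6 h and 1.96 to 2.55 in controls (-3.73 ± 0.50, adjusted p = 1.56e-05). Trim55, a ubiquitin ligase of muscle, had 0.45, 0.63 and -0.60 at 24 h and 3.88, 4.91 and 2.86 at 6 h. In both, 6 h replicate 2 was highest, and replicate 3 was lowest at either time. The same order held in 11 of the 15 named falls, and these 11 also fell at 1 week (17.6% of all tested genes fell there). The order was counted in these 15 genes only, and its share among all tested genes is not known here. The 11 are Ddx25, Trim55, Pdpk1, Myo1e, Tgm5, Itga1, Tmem52b, Lifr, Plcd3, Slc25a27 and Nr1i3. For several of them other probes of the gene gave another value: Pdpk1, a kinase upstream of Akt, fell by 3.51 with the probe used, while its other probes gave -0.46 and -0.17. Lifr, the receptor of leukaemia inhibitory factor, fell by 2.30, against 0.12 to 1.03 with 4 other probes. Itga1, an integrin chain, fell by 2.53, against 0.02 and 0.26, and Myo1e, a class I myosin, by 3.29, against -0.57 and -1.06.

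The other 4 falls did not share that order. Dnah2, a dynein chain of cilia, had -2.15, -1.96 and -2.37 at 24 h, against -0.52, -0.37 and -0.37 at 6 h and -3.55 to -3.52 in controls (-1.74 ± 0.14, adjusted p = 8.5e-08). It thus stood above control at both times. Mageb16 fell by 1.93 with 24 h values below both other groups. Kcnj11, a potassium channel subunit above background on 2 of 3 arrays at 24 h and 3 of 3 at 6 h, fell by 1.94 (adjusted p = 0.0313) and lost the call without any array except 6 h replicate 2 (adjusted p from 0.0588 to 0.127). Bmf, described above, is the fourth.

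For 68 called genes above background on all 3 arrays at 24 h and on none at 6 h only a lower bound of the rise is known. The same holds for 11 genes of the fall, with the times exchanged. These counts take genes without overlap between the times and with a bound above 1-fold, and leave out clone identifiers and receptor segments. Genes above background on only some arrays of the higher group, such as Aqp5 and Krtap31-1 below, are outside them. The bounds given next are the highest within these counts. The highest bounds of the rise were at least 3.22-fold for Ak5, an adenylate kinase, 3.09-fold for the netrin receptor gene Unc5a, 2.76-fold for the receptor kinase gene Erbb2, 2.72-fold for Hpdl, 2.51-fold for Klhl13 and 2.46-fold for malic enzyme Me1. Erbb2 lay at -2.60, -2.54 and -2.70 at 24 h and -4.49, -4.25 and -4.11 at 6 h (adjusted p = 9.11e-07). Me1 lost its call without 24 h replicate 2 or 6 h replicate 3 (adjusted p = 0.0513 and 0.0541). The bounds of the fall were at least 2.09-fold for Lacc1, 2.02-fold for Cys1, 1.99-fold for Myo5b, 1.88-fold for Pcsk2, 1.86-fold for Fbxl13 and 1.85-fold for Mpped1. Lacc1 lost its call without 6 h replicate 3 (adjusted p = 0.0529), and Pcsk2 when the mean over its probes was taken (adjusted p = 0.1). The second probe of Pcsk2 was above background on no array at 24 h and on 1 at 6 h.

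The step between 6 h and 24 h was set against the same step in 1-week marrow, whose arrays are all different ones. Across the 11884 genes the differences at the 2 ages correlated at 0.555 (Pearson) and 0.532 (Spearman), given as a description over genes that are not independent. The difference itself, 8 weeks minus 1 week, passed the test in 2388 genes (20.1%), of which 1812 (15.2%) were higher and 576 (4.85%) lower at 8 weeks. The share of higher among them was 75.9%, and 63.5% under quantile normalization.

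Interferon-stimulated genes stood out in this test by count: 18 of 28 were higher at 8 weeks and none lower. Their median step was 0.79 at 8 weeks and 0.12 at 1 week, where 5 rose and 2 fell (36.2% of all tested genes were called at 1 week). Ifit3 rose by 2.77 at 8 weeks and 1.64 at 1 week, a difference of 1.13 ± 0.26 (adjusted p = 0.00858), and Ifit2 stepped by 1.23 at 8 weeks and -0.15 at 1 week (1.39 between the ages, adjusted p = 0.000179). Cxcl10 likewise stepped by 1.62 at 8 weeks and 0.01 at 1 week (adjusted p = 0.00104). Early granulocyte genes were higher at 8 weeks in 9 of 12 cases, with Mpo at 0.64 against -0.03 at 1 week (adjusted p = 0.000563). Replication genes were higher at 8 weeks in 11 of 33 with none lower, and 3 of them rose and 3 fell at 1 week. Megakaryocyte genes were higher in 5 of 15, with a median step of 0.70 at 8 weeks and -0.15 at 1 week, where none was called.

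Other lists are given by their counts. Mitosis genes fell in 25 of 33 cases at 8 weeks and 29 of 33 at 1 week (medians -0.36 at 8 weeks and -0.39 at 1 week), and 4 were higher and 1 lower in the difference between the ages. Arrest and feedback targets of p53 fell in 16 of 19 at 8 weeks (median -0.57) and 17 of 19 at 1 week (median -0.55), and 1 was higher and 2 lower between the ages. Mature B-cell genes were lower at 8 weeks than at 1 week in 8 of 17 cases, with Tnfrsf13c at -1.12 against 0.07 (adjusted p = 0.000491). Red cell membrane and globin genes were lower in 6 of 19. Macrophage genes did not go one way: Hmox1 rose by 0.67 at 8 weeks and by 1.77 at 1 week (-1.11 between the ages, adjusted p = 0.000142), and Siglec1 by 2.17 at 8 weeks and 1.25 at 1 week (0.92, adjusted p = 0.0248). Dbp fell by 0.45 at 8 weeks and rose by 0.37 at 1 week (adjusted p = 5.89e-05). Dntt did not pass at 8 weeks and fell by 1.2 at 1 week (adjusted p between the ages 5e-04).

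**Figure D4:**
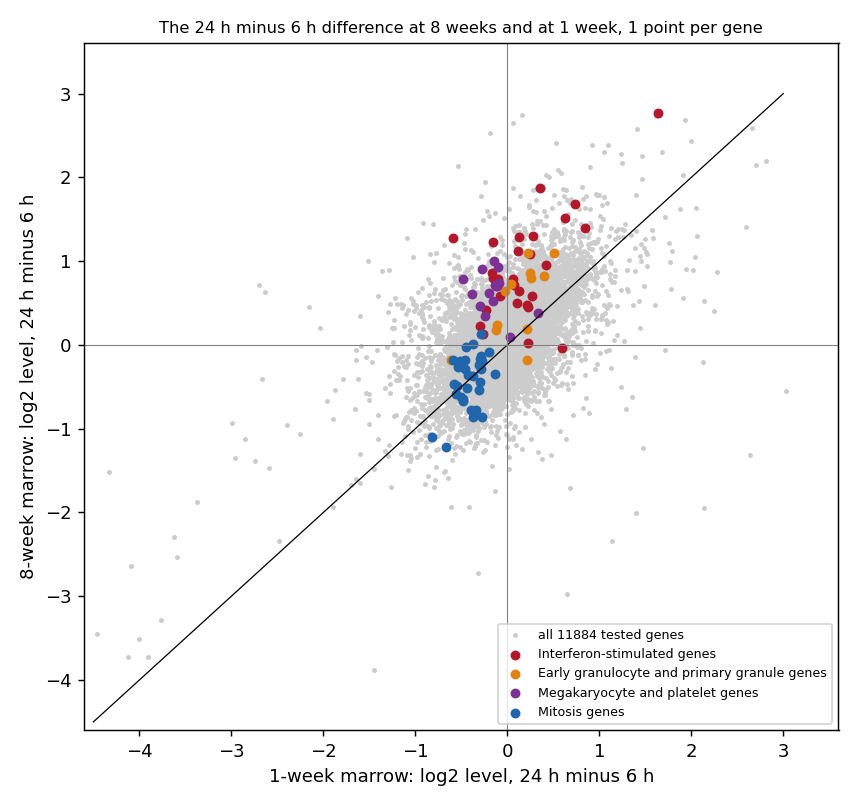
Difference in log2 level, 24 h minus 6 h, at 8 weeks (vertical) and at 1 week (horizontal), 1 point per tested gene, with members of 4 lists coloured and the line of equal values drawn. Most interferon-stimulated, early granulocyte and megakaryocyte genes lie above the line, while mitosis genes lie along it below 0 at both ages.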

How the data were processed

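RNA of whole bone marrow was hybridised to one-colour Agilent arrays, 3 in each of 6 groups. Spot intensities were extracted by the authors with Agilent Feature Extraction 11.5.1, per the submitters' processing notes, and the deposited processed intensity is background-subtracted and not scaled between arrays. The log2 values of the series matrix deposited by the authors, correlated at r of at least 0.9999 with these, served as an alternative.

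From the processed intensities, log2 values minus each array's 75th percentile over non-control probes were computed, and spots of 1 probe were averaged. Of 41174 probes, 24844 carried a gene symbol, for 17178 genes. A gene with several probes (5955 genes) took 1 of them, and the mean over probes was an alternative. Left out were 5284 genes that no group showed well above background on all its arrays and 10 with outlier flags. The remaining 11884 were fitted with limma 3.58.1 in R 4.3.3, with 1 mean per group over 18 arrays, an intensity trend and Benjamini-Hochberg adjustment over all of them. The test was run on simulated data with known steps beforehand. The number of arrays limits the precision. Nothing beyond the series' text says how the 3 mice of a group were kept. The p-values rest on 1 estimate per gene of the spread between mice within a group. It was pooled over all 6 groups of both ages and drawn toward the intensity trend. The p-values thus do not measure the spread of the 3 mice at 1 time alone.

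Genes were named by rule: the 15 largest rises and falls without overlap and with signal on both sides, the 6 largest bounds each way, up to 4 members of smallest adjusted p per list, every member of the p53, B-cell precursor, chemokine ligand and clock lists, the 8 highest and 8 lowest differences between the ages, and a few marrow genes always. The comparison and the 49 lists were chosen with earlier results of these data known. Same-numbered arrays of the times did not deviate together (r = 0.0468, -0.0258 and -0.0451 for numbers 1, 2 and 3), so the numbers were not used as pairs. Alternatives covered scaling, background, filters, probes, the variance model, arrays in the fit, slide and replicate blocks and each array left out.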

Additional observations from a re-analysis of the deposited data

Results flagged for a closer look

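The step between 6 h and 24 h differed between the ages, by the contrast of 8 weeks minus 1 week in the same limma fit, in 2388 genes. The 8 highest and 8 lowest such differences are given here on the log2 scale.

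Ifit3b, an interferon-stimulated gene, stepped by 2.53 at 8 weeks and -0.19 at 1 week, a difference of 2.72 (adjusted p = 0.000161). Fos stepped by 2.74 at 8 weeks and 0.16 at 1 week, a difference of 2.58 (adjusted p = 0.000491). Bmper, a BMP-binding protein, and Gng13, a G protein subunit, were above background at 8 weeks on the 24 h arrays and on no 6 h array, at least 1.68-fold and 2.16-fold higher, with differences between the ages of 2.67 and 2.58 (adjusted p = 0.0304 and 0.0205), whose sizes also rest on background signals at 6 h. Aqp5, a water channel, gave a difference of 2.82 (adjusted p = 0.0156). At 8 weeks it was above background on no 24 h array and on 2 of 3 at 6 h, at least 1.56-fold lower at 24 h, so the size of this difference rests on background signals. H2ap, Fabp2 and Olfr1199 were not well above background on any of the 6 irradiated 8-week arrays, and their differences of 3.42, 3.27 and 2.61 come with 1-week steps of -2.71, -2.64 and -2.16. With the probe used, Ido2 was likewise dim at 8 weeks, with a difference of -3.95 and a 1-week step of 2.64, and a second probe, above background on 2 of 3 arrays at 24 h and on none at 6 h, gave a step of 1.08 at 8 weeks. For these 4 genes the 8-week step lies between background signals, so the size of the difference is not a measured one.

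Cys1, a cilium protein, was at least 2.02-fold lower at 24 h at 8 weeks and stepped by -0.32 at 1 week, a difference of -2.40 (adjusted p = 0.00381). It was above background on no 24 h array at 8 weeks, so the size of this difference also rests on background signals. Dnah2 stepped by -1.74 at 8 weeks and -0.13 at 1 week (-1.61), and Mageb16 by -1.93 at 8 weeks and -0.42 at 1 week (-1.51). Fcna, ficolin A of the complement system, rose by 0.88 at 8 weeks and 2.28 at 1 week (-1.41, adjusted p = 0.000117). Angptl7, an angiopoietin-like protein, stepped by 0.53 at 8 weeks and 2.13 at 1 week (-1.60, adjusted p = 0.00601). Krtap31-1, at least 2.14-fold lower at 24 h at 8 weeks, and Ccn2 gave -1.50 and -1.40 (adjusted p = 0.0429 and 0.0439). Krtap31-1, like Cys1, was above background on no 24 h array at 8 weeks, with the same limit on its size. The age differences of Bmper, Ccn2, Krtap31-1 and Ido2 lost their call under several of the alternative settings.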

How the results depend on the processing

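The count of 5872 called genes stayed within 1.5 times of itself under every setting run, from 4915 with normexp background correction to 6190 with slide as a random block, and from 4950 to 5658 with 1 of the 6 irradiated 8-week arrays left out. For those 6 arrays (all 12 irradiated arrays for the ages), the ranges were 3293 to 3809 for genes higher at 24 h, 1657 to 1859 for genes lower, 366 to 511 for genes called with at least a 2-fold difference, and 1512 to 2723 for the difference between the ages, the lowest without 6 h replicate 2 at 8 weeks. Without replicate 2 of the 1-week controls 5981 genes were called, 3976 higher and 2005 lower. With normexp 162 genes were called at 2-fold or more and 1446 differed between the ages. With slide as a fixed block 1590 differed between the ages. The cause of these shifts was not tested. With replicate number as a block 5807 genes were called and 2290 differed between the ages, and since the numbers share only a number this bears on no pairing. Of 301 named genes, between 280 and 301 kept their direction and side of the threshold in each fit of all 301, and no fit reversed a called one. The mean over a gene's probes moved some called differences by over 1.5 times, among them Siglec1 to 1.44, Sfrp1 to 1.05, Fkbp11 to 0.95, Bmf to -0.81 and Arpp21 to -0.87, each still called and with other probes not above background on all 6 arrays. Within slide 2, Ngp turned to 0.038. The planned normexp on mean signals was not run because the array files used here hold no such column, and median signals were used in its place, chosen after seeing the data. Dim probes limit what can be said: for at least 68 rises and 11 falls a bound only is known.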
